A study of Mus musculus with 9 samples.

Results

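Postnatal day 10 (P10) was set against postnatal days 4 and 30 (P4 and P30) together, to describe genes whose RNA in the sebaceous gland was highest or lowest at the middle of the 3 ages. The contrast was P10 minus the mean of P4 and P30 on the log2 scale, and it was fitted on all 9 libraries, 3 per age. Of the 24972 gene symbols in the count tables, 14806 had at least 10 counts in 3 or more libraries and were tested. A gene is called a peak here when all 3 P10 libraries lay above all 6 libraries of P4 and P30, and a dip when all 3 lay below. There were 383 peaks, 2.59% of the genes tested, and 232 dips, 1.57%. Genes that went up or down steadily from P4 to P30 are in neither set.

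Every library came from basal cells of sebaceous glands collected by laser capture microdissection. The tissue was fresh frozen and came from C57BL/6 mice with the alleles Lrig1CreERT2xRosa26Confetti, that is, a tamoxifen-inducible Cre recombinase under Lrig1 and a multicolour reporter at Rosa26. Both alleles were present at all 3 ages, and whether the Cre had been induced is not stated in the labels. The P4 libraries carry the numbers 2, 3 and 4, and the P10 and P30 libraries the numbers 1, 2 and 3. At P30 the labels place the hair follicles in anagen, the growth phase. Neither the number of animals nor the number of glands behind a library is given, so each p-value describes the spread among the libraries, part of which may be technical.

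The sebaceous gland is an outgrowth of the upper hair follicle. Its basal cells divide at the rim, move inward as sebocytes that fill with triglycerides, wax esters and other lipids, and finally burst to release sebum through a duct lined by keratinising epithelium. The first postnatal weeks are the time in which the mouse gland forms and enlarges, and Lrig1 marks stem cells at its junction with the follicle.

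Libraries held between 10018141 and 20595681 counts, and P10 libraries had between 15162 and 19203 genes with at least 1 count, against 12165 to 15719 at P4 and 13750 to 17292 at P30. Krt5, the keratin of basal epithelial cells, was present in every library, between 1060 and 2369 CPM (counts scaled to a common library size, here with TMM factors). RNA of tissue next to the gland was present as well. Markers of the hair shaft and inner root sheath took 2.93% to 19.1% of all counts in a library, and markers of skeletal muscle took 0.397% to 13.9%. Fewer cells of a type and less RNA per cell cannot be told apart in these samples.

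Plb1 was the one gene that passed the test at P10. It encodes a phospholipase B, a membrane-bound enzyme that cleaves fatty acids from phospholipids, and it lies at chr5:32232691-32364356 in the mm10 build. Its level was 4.11, 9.11 and 6.66 CPM in the P4 libraries, 116, 108 and 46.3 CPM in the P10 libraries, and 10.7, 10.96 and 6.91 CPM in the P30 libraries. All 3 P10 libraries were above the other 6 with a wide gap, and P4 and P30 overlapped. The means were 6.63 ± 2.50 CPM at P4, 90.3 ± 38.3 CPM at P10 and 9.54 ± 2.28 CPM at P30 (SD, n = 3 each), a log2 contrast of 3.51 ± 0.35 (SE). Its adjusted p was 0.017 by edgeR's quasi-likelihood test with Benjamini-Hochberg adjustment over the 14806 genes. Plb1 overlaps the predicted gene Gm36840 in the RefSeq annotation. The call was lost when any 1 of 7 libraries was left out, with adjusted p between 0.0512 without P4 library 2 and 0.213 without P10 library 2, while without P4 library 3 or P10 library 3 it was 0.0177 or 0.0049. The log2 contrast itself stayed between 3.33 and 3.86.

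Across all genes, 1 of 14806 (0.00675%) was called higher at P10 and 0 (0%) lower. At an unadjusted p under 0.05 the contrast gave 446 genes higher (3.01%) and 567 lower (3.83%), and 1467 in either direction with limma-voom. Of these edgeR genes, 179 of the higher ones were peaks and 165 of the lower ones were dips, so most genes with a small p were not outside the ranges of both other ages. A stricter question, whether P10 differed from P4 and from P30 in the same direction, gave 0 calls either way after adjustment, and 65 genes higher (0.439%) and 119 lower (0.804%) before it, with 2 and 2 calls in DESeq2. Plb1 did not pass this stricter question (adjusted p = 0.355 in edgeR's quasi-likelihood test). In the main contrast limma-voom gave Plb1 an adjusted p of 0.0781. Plb1 was therefore called in the averaged contrast with edgeR and DESeq2. It was called neither in that contrast by limma-voom nor in edgeR's stricter question. The genes that DESeq2 called on the stricter question are not named here. The other peaks and dips are described by their library values and not as genes shown to change. DESeq2 called 34 genes higher and 78 lower in the main contrast, of which 24 were peaks and 46 were dips.

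**Figure D1:**
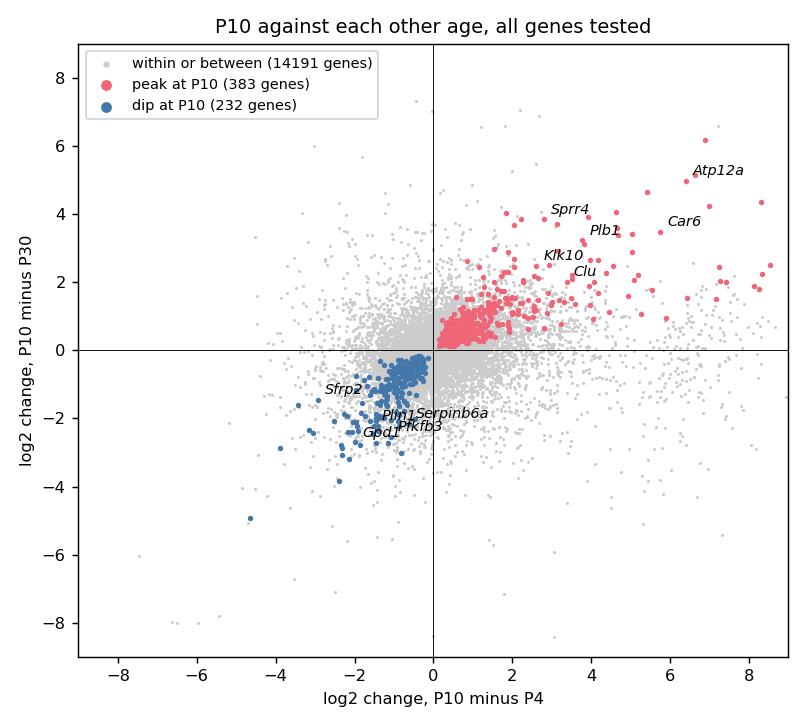
Log2 change from P4 to P10 (x axis) and from P30 to P10 (y axis) of the 14806 genes tested, 1 point per gene, both from the same fit and sharing the P10 libraries. The 383 peaks (red) lie in the upper right and the 232 dips (blue) in the lower left, with Plb1, Atp12a and Car6 far to the upper right, and 11 genes lie outside the axes.

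To show the regulatory sequence in front of genes with the pattern, the RefSeq promoter windows (GRCm38.p6, 250 bases before to 50 after the start site, 5′ to 3′ on the gene's strand) are given for Plb1 and for Sprr1a and Sprr4, a pair of neighbouring peaks that encode small proline-rich proteins of the cornified envelope. The table lists 2 start sites for Plb1, of which the first is shown. Capitals mark TGANTCA, the site read by AP-1 transcription factors, and TATAAA, the TATA box, both searched on either strand.
Plb1, chr5:32238834-32239133, plus strand: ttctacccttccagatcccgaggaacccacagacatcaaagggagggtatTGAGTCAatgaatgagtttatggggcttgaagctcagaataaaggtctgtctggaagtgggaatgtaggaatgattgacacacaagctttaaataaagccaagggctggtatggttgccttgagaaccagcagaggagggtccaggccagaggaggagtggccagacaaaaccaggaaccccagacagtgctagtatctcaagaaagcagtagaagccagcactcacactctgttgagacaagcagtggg
Sprr1a, chr3:92485832-92486131, minus strand: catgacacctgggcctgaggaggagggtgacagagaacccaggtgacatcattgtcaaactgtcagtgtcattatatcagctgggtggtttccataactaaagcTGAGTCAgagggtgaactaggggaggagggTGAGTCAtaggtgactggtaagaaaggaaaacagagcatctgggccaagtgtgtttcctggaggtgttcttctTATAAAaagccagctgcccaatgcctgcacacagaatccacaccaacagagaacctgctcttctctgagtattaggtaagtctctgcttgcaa
Sprr4, chr3:92500444-92500743, minus strand: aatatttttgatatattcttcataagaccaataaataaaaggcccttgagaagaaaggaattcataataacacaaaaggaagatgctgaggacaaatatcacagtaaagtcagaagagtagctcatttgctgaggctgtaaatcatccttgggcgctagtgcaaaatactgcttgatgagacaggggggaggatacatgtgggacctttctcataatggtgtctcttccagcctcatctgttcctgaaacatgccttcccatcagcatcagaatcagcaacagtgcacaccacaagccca

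The AP-1 letters begin at -200 in the Plb1 window shown and at -146 and -116 in that of Sprr1a, which also holds TATAAA at -43. Sprr4 and the second Plb1 window, chr5:32353330-32353629, hold neither. Both Plb1 windows lie inside the span of the gene, chr5:32232691-32364356. Of 32851 promoter windows in the table, 7.81% held TGANTCA, beside 7.45% of the 376 windows of peaks and 6.01% of the 233 windows of dips. TATAAA was in 13.6% of all windows, 7.45% of those of peaks and 7.30% of those of dips. The grainyhead letters AACNNGTT were in 4.20%, 2.13% and 4.29%, and the peroxisome proliferator response element in 0.381%, 0.532% and 0%. A match describes the letters of the window only, and 283 peaks and 178 dips had a window in the table.

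The peak with the smallest p after Plb1 was Clu. This gene, a secreted chaperone, was at 81.4, 21.1 and 26.0 CPM in the P4 libraries, 407, 444 and 484 CPM in the P10 libraries, and 159, 71.0 and 101 CPM in the P30 libraries. Its P10 libraries were close together and all above the highest of the others. The log2 contrast was 2.69 ± 0.39 (SE, adjusted p = 0.182 in edgeR's quasi-likelihood test), and limma-voom gave Clu an adjusted p of 0.0145, its only call.

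A pair of transport and pH genes had larger contrasts. Car6, a secreted carbonic anhydrase, was at 13.04, 0 and 8.23 CPM at P4, at 424, 296 and 437 CPM at P10, and at 23.4, 46.5 and 33.2 CPM at P30. Atp12a, the catalytic subunit of the non-gastric proton-potassium pump, was at 0.999, 0 and 13.7 CPM at P4, at 481, 309 and 447 CPM at P10, and at 2.44, 33.8 and 2.55 CPM at P30. Both genes were low at P4 and P30 and far higher in every P10 library. Their log2 contrasts were 4.62 ± 0.78 and 5.69 ± 1.13 (SE), with adjusted p of 0.246 and 0.359 in edgeR's quasi-likelihood test.

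**Figure D2:**
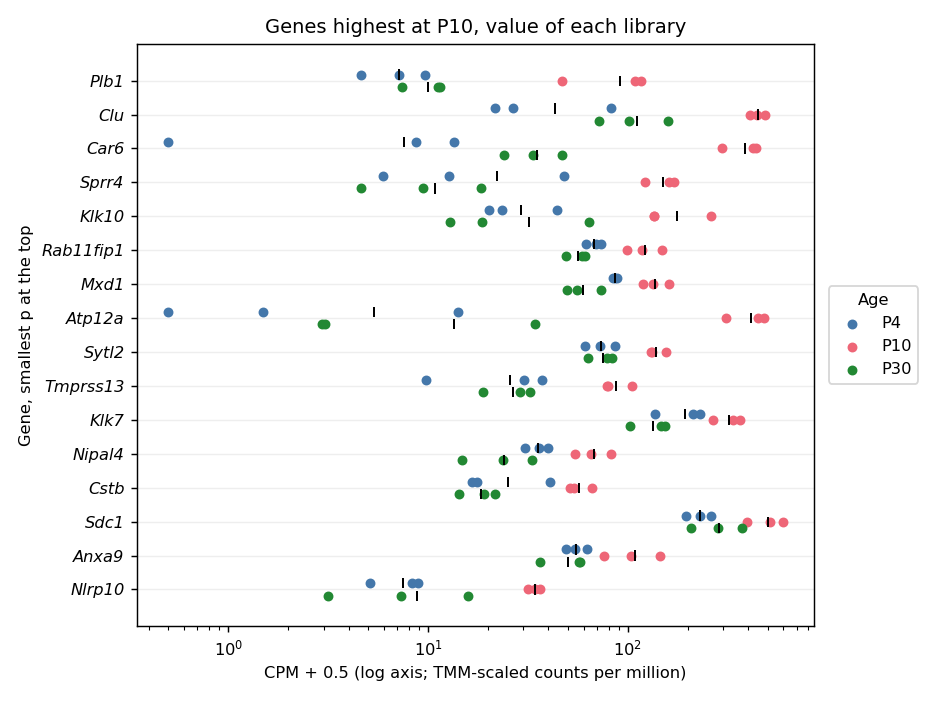
CPM plus 0.5 on a log axis in each of the 9 libraries (points, coloured by age) and mean of each age (bars) for Plb1 and the 15 other peaks with the smallest p among those whose P10 mean was 10 CPM or more. The P10 points of Atp12a and Car6 lie between 296 and 481 CPM, and all other libraries of these genes lie at or below 46.5 CPM.

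Genes of the cornified layer and of its shedding come next by role. Sprr4 was at 12.2, 5.46 and 47.1 CPM at P4, at 160, 121 and 169 CPM at P10, and at 4.11, 17.99 and 8.93 CPM at P30. Its neighbour Sprr1a was at 1369, 393 and 1124 CPM at P4, at 1504, 2037 and 1651 CPM at P10, and at 1074, 509 and 226 CPM at P30. In Sprr4 the groups were far apart, and in Sprr1a the lowest P10 library was near the highest P4 library. Klk10, a kallikrein-related peptidase, was at 43.5, 23.05 and 19.7 CPM at P4, at 135, 134 and 259 CPM at P10, and at 18.2, 63.4 and 12.4 CPM at P30. Klk7, a chymotrypsin-like protease that cuts the junctions of shedding corneocytes, had means of 192 ± 49.5, 321 ± 50.8 and 133 ± 27.5 CPM. Cst6, an inhibitor of cysteine proteases in cornifying epithelium, was at 86.8, 183 and 239 CPM at P4, at 607, 528 and 950 CPM at P10, and at 13.5, 246 and 124 CPM at P30. Log2 contrasts were 3.33 ± 0.58 for Sprr4, 2.55 ± 0.47 for Klk10 and 2.24 ± 0.62 for Cst6 (SE), and their adjusted p in edgeR's quasi-likelihood test were 0.271, 0.345 and 0.646. Reads of the Sprr and kallikrein families can be shared between close relatives, so their assignment is uncertain.

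Other peaks of the leading 15 have a range of roles. Nlrp10, a pattern recognition receptor of keratinocytes, was at 31.3 to 35.7 CPM at P10 and at 2.66 to 15.3 CPM in the other 6 libraries. Tmprss13, a membrane serine protease, was at 77.7 to 104 CPM against 9.21 to 36.6 CPM. Nipal4, whose human counterpart is mutated in ichthyosis, was at 53.8 to 82.2 CPM against 14.4 to 39.5 CPM. The vesicle traffic genes Rab11fip1 and Sytl2 had log2 contrasts of 0.98 ± 0.19 and 0.91 ± 0.18 (SE), and Mxd1, an antagonist of MYC, 0.94 ± 0.19. Sdc1, a cell surface heparan sulfate proteoglycan, had means of 228 ± 32.2, 501 ± 102 and 286 ± 82.5 CPM at P4, P10 and P30 (SD, n = 3). Cstb, an inhibitor of cathepsins, had means of 24.5 ± 13.8, 56.4 ± 7.87 and 17.9 ± 3.73 CPM, and Anxa9, an annexin, 54.8 ± 6.65, 107 ± 34.0 and 49.8 ± 12.01 CPM. None of these passed edgeR's quasi-likelihood test after adjustment. Among peaks with a P10 mean of at least 10 CPM, DESeq2 called 14 of the 15 with the smallest p after Plb1, all but Anxa9. These 15 were picked by edgeR's p in the same libraries, so the overlap is not independent support.

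Genes picked after their values were seen add other epithelial functions. Ehf, an ETS factor of differentiating epithelium, was at 16.2, 6.02 and 22.5 CPM at P4, at 48.2, 40.7 and 40.7 CPM at P10, and at 13.04, 16.7 and 14.03 CPM at P30. Grhl2, a grainyhead factor that controls epithelial junction genes, was at 66.3 to 92.4 CPM at P10 and at 35.1 to 64.6 CPM elsewhere. Trpv6, an epithelial calcium channel, was at 26.4 to 39.3 CPM at P10, at 7.64 to 12.6 CPM at P4 and at 0 to 3.09 CPM at P30. Stra6, a retinol receptor, was at 36.8 to 121 CPM at P10 and at 0.158 to 23.6 CPM elsewhere. In all 4 genes the P10 libraries stood above the others without overlap.

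Of the 383 peaks, 127 were at least 2-fold above the means of both other ages and 44 at least 4-fold. The median peak had a log2 contrast of 0.88 and a mean of 44.4 CPM at P10. Mean expression was higher at P30 than at P4 in 280 peaks and lower in 103. P10 library 1 held the top value in 63 peaks, library 2 in 149 and library 3 in 171. At the edge of the definition, Fzd10 was a peak by 57.736 against 57.731 CPM, and Eaf1 missed it with 62.148 against 62.155 CPM.

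Among dips, genes of lipid storage and glycerol metabolism had small p. Plin1, the coat protein of large lipid droplets, was at 138, 124 and 126 CPM in the P4 libraries, 53.9, 41.5 and 41.9 CPM in the P10 libraries, and 177, 120 and 342 CPM in the P30 libraries. Gpd1, which makes glycerol 3-phosphate, was at 170, 175 and 150 CPM at P4, at 61.0, 18.1 and 45.3 CPM at P10, and at 259, 178 and 367 CPM at P30. The highest P10 library was more than 2-fold below the lowest other library for both genes. The log2 contrast was -1.86 ± 0.32 for Plin1 and -2.34 ± 0.39 for Gpd1 (SE), with adjusted p of 0.252 and 0.246 in edgeR's quasi-likelihood test.

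The list of triglyceride and phospholipid synthesis held 5 dips and 2 peaks among 18 tested members, with a median log2 contrast of -0.47, beside 0.05 over all genes tested, and of -0.22 without the 3 libraries with the fewest genes detected (P4 libraries 3 and 4 and P30 library 3). Over all genes tested, 53.8% had a positive contrast, 2.59% were peaks and 1.57% dips. Gpat3 and Gpat4, which start glycerolipid synthesis, had means of 5.43 ± 1.81 and 54.5 ± 4.20 CPM at P10. Gpat3 was at 19.5 ± 13.9 CPM at P4 and 19.3 ± 5.08 CPM at P30, and Gpat4 at 76.6 ± 10.1 and 67.5 ± 5.71 CPM (SD, n = 3). Agpat2, the next acyltransferase, was at 45.9, 37.1 and 68.3 CPM at P4, at 18.9, 13.9 and 16.9 CPM at P10, and at 48.2, 38.3 and 124 CPM at P30. Dgat2, which adds the last acyl chain of triglycerides, was at 34.9 to 54.0 CPM at P10, at 55.5 to 72.5 CPM at P4 and at 136 to 263 CPM at P30. Chpt1, a choline phosphotransferase, was at 16.1 to 21.3 CPM at P10 and at 28.1 to 143 CPM elsewhere. The peaks were the phosphatidate phosphatases Lpin2 and Lpin3, with log2 contrasts of 0.94 ± 0.28 and 1.27 ± 0.51 (SE). At an unadjusted p under 0.05, 7 members were lower and 2 higher.

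**Figure D3:**
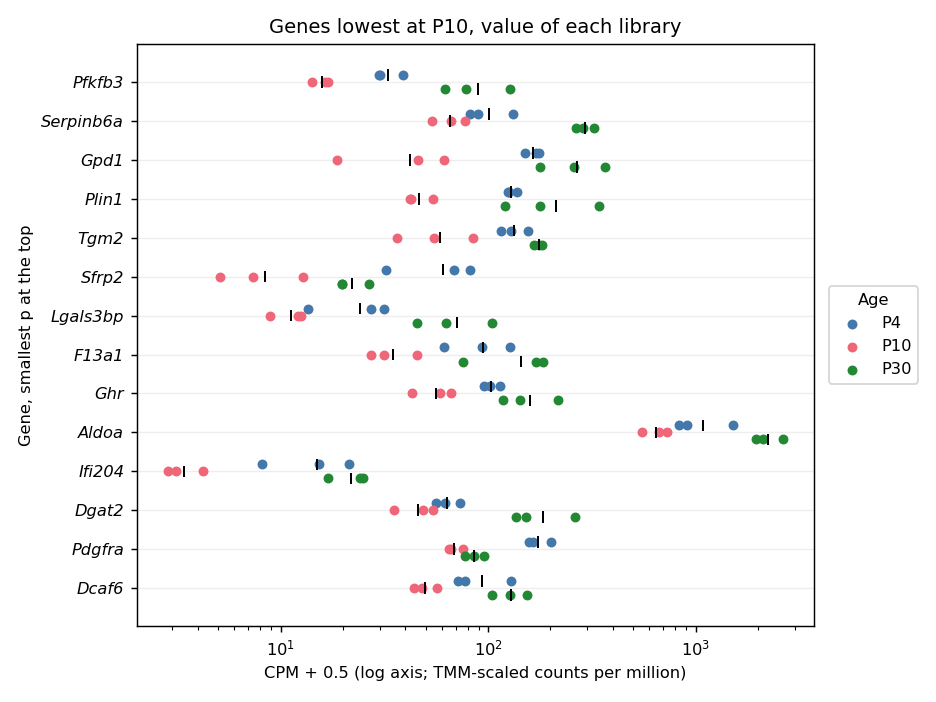
CPM plus 0.5 on a log axis in each library (points, coloured by age) and mean of each age (bars) for 14 dips with small p among those whose means at P4 and P30 were both 10 CPM or more. P10 points lie left of all others in each row, and for Plin1 they lie between 41.5 and 53.9 CPM against 120 CPM or more.

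Genes of energy metabolism had mostly negative contrasts. Of 19 tested glycolysis genes 15 had a negative contrast, 12 with an unadjusted p under 0.05, and 4 were dips, with a median of -0.72. Their summed share of counts overlapped, at 0.169% to 0.309% at P10, 0.232% to 0.366% at P4 and 0.555% to 0.684% at P30. Aldoa, the aldolase of muscle and many other tissues, was at 914, 1515 and 831 CPM at P4, at 727, 667 and 550 CPM at P10, and at 2646, 1950 and 2108 CPM at P30. Pfkfb3, which makes the activator of phosphofructokinase, was at 29.6, 38.4 and 29.2 CPM at P4, at 15.9, 16.4 and 13.6 CPM at P10, and at 77.5, 61.5 and 128 CPM at P30. Both genes were lowest at P10 and highest at P30 without overlap. Gpi1 and Slc16a3, a glycolytic isomerase and a lactate exporter, had log2 contrasts of -0.72 ± 0.18 and -2.14 ± 0.62 (SE).

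In fatty acid oxidation, 4 acyl-CoA dehydrogenases were dips among 21 tested members and Cpt1a was a peak. The median of the list was -0.40, and -0.05 without the 3 libraries with the fewest genes. Acadm was at 115, 188 and 119 CPM at P4, at 74.6, 53.5 and 55.8 CPM at P10, and at 114, 92.7 and 171 CPM at P30. Acadl, Acadvl and Acads, which act on long, very long and short chains, had log2 contrasts of -0.68 ± 0.23, -0.44 ± 0.17 and -0.87 ± 0.29 (SE). Cpt1a, the enzyme that commits fatty acids to mitochondrial entry, was instead at 128.5, 133.7 and 137.2 CPM at P10, at 91.1, 49.98 and 50.4 CPM at P4 and at 71.6, 99.3 and 91.0 CPM at P30. All 25 tested genes of oxidative phosphorylation had a negative contrast, with a median of -0.36 (-0.24 with library totals alone), and 8 had an unadjusted p under 0.05. Their summed share overlapped as well, at 0.264% to 0.393% at P10 and 0.359% to 0.461% elsewhere. Cox5b and Cox6c were dips. Cox6c, a subunit of cytochrome c oxidase, was at 338, 297 and 340 CPM at P4, at 231, 209 and 175 CPM at P10, and at 366, 261 and 484 CPM at P30.

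Sebocyte genes were low at P10 in the contrast but their libraries overlapped. All 22 tested members of the sebocyte differentiation list had a negative contrast, with a median of -1.10, 7 had an unadjusted p under 0.05, and Cidec and Dgat2 were dips. Scd1, the stearoyl-CoA desaturase, was at 1527, 4360 and 8292 CPM at P4, at 1923, 811 and 1954 CPM at P10, and at 2608, 1727 and 10409.5 CPM at P30. Pparg, the nuclear receptor of sebocyte and fat cell differentiation, was at 28.9, 85.9 and 153 CPM at P4, at 20.4, 11.6 and 23.6 CPM at P10, and at 24.3, 12.5 and 72.2 CPM at P30. High values came from P4 libraries 3 and 4 and P30 library 3, which were also the libraries with the fewest genes detected. Without those 3 libraries, which leaves P4 with 1 library, the median of the list was 0.15, and it was -0.50 without P30 library 3 alone. That of cholesterol synthesis went from -0.43 to 0.15, and was -0.27, -0.11 and -0.06 without P10 library 1, P30 library 3 or P4 library 4. Fatty acid synthesis, with a median of -0.75 and 18 of 21 members negative, was at -0.22 without the same 3 libraries and at -0.49 without P30 library 3. Elovl6, a fatty acid elongase, turned from -1.40 to 0.59.

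Markers of fat cells had negative contrasts as well, and their list shares genes such as Cidec and Lpl with the lipid lists. All 12 tested adipocyte markers had a negative contrast, with a median of -1.21, 10 with an unadjusted p under 0.05, and 5 were dips (Plin1, Cidec, Fabp4, Cd36 and Lpl). The summed share of counts of the list was 0.162% to 0.232% at P4, 0.0841% to 0.140% at P10 and 0.189% to 0.465% at P30. P10 overlapped neither other age. Fabp4, a fatty acid carrier, was at 636, 767 and 401 CPM at P4, at 287, 320 and 218 CPM at P10, and at 461, 361 and 972 CPM at P30. Adipoq, the fat cell hormone adiponectin, was at 88.8, 79.1 and 33.4 CPM at P4, at 38.1, 17.6 and 31.1 CPM at P10, and at 96.1, 57.1 and 173 CPM at P30. Lpl, a lipase of the capillary wall supplied by fat and muscle cells, was at 153 to 271 CPM at P10 and at 364 to 1474 CPM elsewhere, and Cd36, a fatty acid translocase, at 75.4 to 166 against 169 to 361 CPM. Plin1, Cidec, Pparg and other lipid genes are used by sebocytes and fat cells alike, and the part of fat cells in the dips was not tested.

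Skeletal muscle markers had the lowest median of the lists with at least 10 tested members, -1.47, with 24 of 25 members negative and 15 with an unadjusted p under 0.05. With 1 library left out it was between -2.41, without P10 library 1, and -0.99. Tnnc2, a fast troponin, was the only dip among them, at 1312, 130 and 680 CPM at P10 and at 1353 to 5912 CPM elsewhere. The summed share of the list was 5.75%, 0.397% and 2.54% in P10 libraries 1, 2 and 3, beside 2.77% to 8.22% at P4 and 11.2% to 13.9% at P30. Ttn, the giant sarcomere protein, was at 18591 CPM in P10 library 1 and at 1018 CPM in library 2. Aldoa was at 727 and 667 CPM and Pfkfb3 at 15.9 and 16.4 CPM in those same libraries. The part of muscle in the other dips of energy metabolism was not tested.

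**Figure D4:**
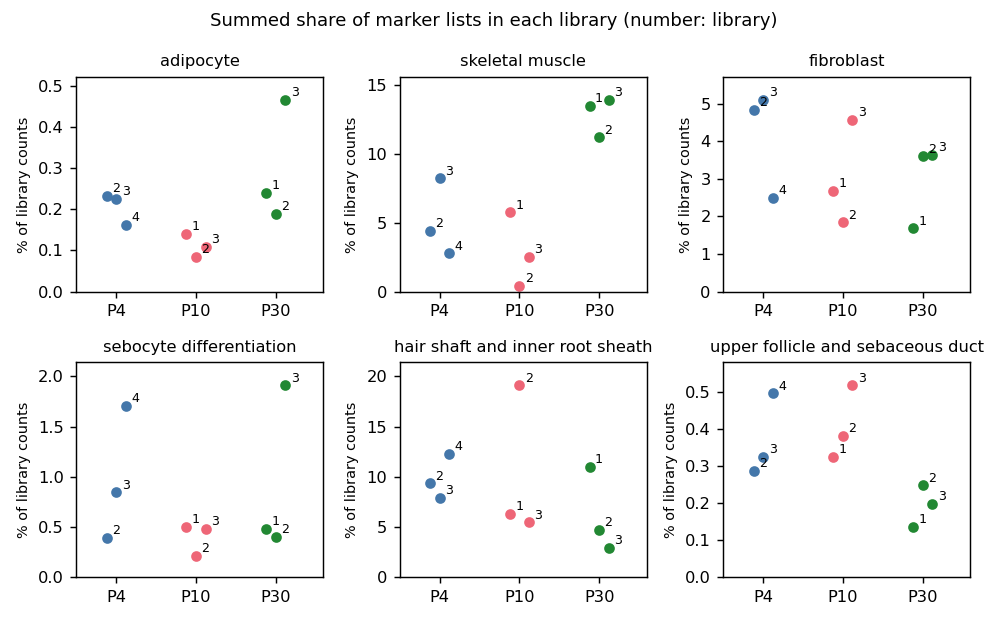
Summed share of library counts (y axis, percent, linear from 0) of 6 marker lists in each library, by age, with the library number beside each point. The adipocyte share is the one of the 6 in which all P10 libraries lie below all others, and the sebocyte share is high in P4 libraries 3 and 4 and P30 library 3.

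Stromal and immune genes gave further dips. Sfrp2, a secreted Wnt modulator of dermal fibroblasts, was at 68.3, 81.4 and 31.8 CPM at P4, at 4.60, 6.87 and 12.3 CPM at P10, and at 19.4, 26.1 and 19.2 CPM at P30. Pdgfra, the growth factor receptor that marks fibroblasts, was at 164, 200.5 and 157 CPM at P4, at 65.6, 64.7 and 75.0 CPM at P10, and at 76.8, 84.7 and 94.7 CPM at P30. For Pdgfra the gap to P30 was small and that to P4 large. All 15 fibroblast markers had a negative contrast (median -0.75, and -0.49 without P10 library 2), 3 with an unadjusted p under 0.05, and their summed share overlapped between ages, at 1.84% to 4.57% at P10 against 1.68% to 5.10% elsewhere.

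F13a1, a coagulation factor subunit made by tissue macrophages, was at 31.0, 26.8 and 44.7 CPM at P10 and at 60.9 to 183 CPM elsewhere. Cd68 and Adgre1, which mark macrophages, were dips with log2 contrasts of -1.82 ± 0.55 and -1.41 ± 0.60 (SE), and in their list 6 of 15 members were positive. Ifi204, an interferon-inducible DNA sensor with close relatives, was at 2.36 to 3.73 CPM at P10 and at 7.64 to 24.5 CPM elsewhere. Oasl2, another interferon-induced gene, was at 0.576 to 1.64 CPM against 3.66 to 22.8 CPM, and 15 of 16 tested interferon response genes had a negative contrast (median -0.84), 4 of them with an unadjusted p under 0.05. Lgals3bp, a secreted glycoprotein, was at 8.39 to 12.05 CPM against 13.1 to 104 CPM.

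Serpinb6a, an intracellular protease inhibitor with close relatives, and Tgm2, a tissue transglutaminase, had log2 contrasts of -1.39 ± 0.22 and -1.39 ± 0.27 (SE). Ghr, the growth hormone receptor, was at 66.1, 58.4 and 42.7 CPM at P10 and at 94.7 to 217 CPM elsewhere. Dcaf6, a substrate receptor of a ubiquitin ligase, was at 43.4 to 56.4 CPM against 71.6 to 153 CPM. None of the dips named here passed edgeR's quasi-likelihood test after adjustment. Among dips with means of at least 10 CPM at P4 and P30, DESeq2 called 15 of the 15 with the smallest p. These too were picked by edgeR's p in the same libraries, so the overlap is not independent support.

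Of the 232 dips, 70 were at least 2-fold below the means of both other ages and 13 at least 4-fold. Their median log2 contrast was -0.86. P30 exceeded P4 in 123 and P4 exceeded P30 in 109. The lowest value was in P10 library 1 for 33 dips, library 2 for 115 and library 3 for 84. Prdm2 was a dip by 90.035 against 90.083 CPM, and Fam126a missed it with 23.162 against 23.148 CPM.

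Keratinocyte lists had more positive than negative contrasts, beside 53.8% positive over all genes tested. In the list of the upper follicle and sebaceous duct 9 of 12 members were positive (median 0.56, and 0.35 without P10 library 3), 4 with an unadjusted p under 0.05, and Plet1 and Cst6 were peaks. Plet1, a surface marker of the junction between follicle and gland, was at 21.6, 11.3 and 44.1 CPM at P4, at 73.1, 52.5 and 109 CPM at P10, and at 7.6, 27.2 and 32.3 CPM at P30, though its reads overlap those of its antisense gene Plet1os. Among 20 epidermal differentiation genes 15 were positive (median 0.62), 5 with an unadjusted p under 0.05, and Sprr1a and Klk7 were peaks. That median was 0.20 without P10 library 3, 0.41 without P30 library 3, 1.18 without P30 library 2, 1.28 without P4 library 3 and 1.25 with limma-voom. Of 17 basal keratinocyte genes 12 were positive (median 0.31, and 0.48, 0.18 and 0.13 without P10 library 1, P10 library 3 or P30 library 3), and Sox9, a stem cell factor of the follicle, was a peak at 255, 322 and 388 CPM against 105 to 250.1 CPM.

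Lrig1 was at 157, 129 and 154 CPM at P4, at 133, 118 and 208 CPM at P10, and at 75.4, 89.4 and 74.0 CPM at P30. P10 overlapped P4 and both were above P30, so Lrig1 was not a peak. Krt6a, a keratin of the companion layer, was a peak at 210, 318 and 257 CPM against 65.1 to 203 CPM.

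Hair genes were high in 1 of the 3 P10 libraries. All 23 tested genes of the hair shaft and inner root sheath had a positive contrast (median 1.07), 2 with an unadjusted p under 0.05, and 16 of 18 keratin-associated protein genes did (median 1.41), but neither list held a peak. P10 library 2 gave 19.1% of its counts to the former list, against 6.32% and 5.43% in libraries 1 and 3, 7.88% to 12.3% at P4 and 2.93% to 11% at P30. Krtap15 was at 212, 1254 and 81.7 CPM in the 3 P10 libraries, and at 47.7 to 227 CPM at the other ages. Without P10 library 2 the medians were 0.24 and -0.06, the former was 0.62 without P4 libraries 3 and 4 and P30 library 3, and Krt71, an inner root sheath keratin, went from 0.31 to -0.34.

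Ribosomal protein genes were the list with the most peaks. All 24 had a positive contrast with a median of 0.38 (0.24 without the 3 libraries with the fewest genes), 4 with an unadjusted p under 0.05, and 8 were peaks (Rpl4, Rpl7, Rpl8, Rpl10, Rpl23, Rpl28, Rps3 and Rps18). Their summed share was 1.09%, 1.13% and 1.09% at P10, 0.677% to 0.952% at P4 and 0.782% to 0.938% at P30, and P10 overlapped neither other age. Rps3 was at 364, 191 and 220 CPM at P4, at 427, 509 and 424 CPM at P10, and at 373, 407 and 344 CPM at P30. Rpl10 was at 328 to 351 CPM at P10 and at 130 to 290.3 CPM elsewhere. The differences were small beside those of Plb1 or Car6, and reads of ribosomal protein genes can be shared with pseudogene copies.

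**Figure D5:**
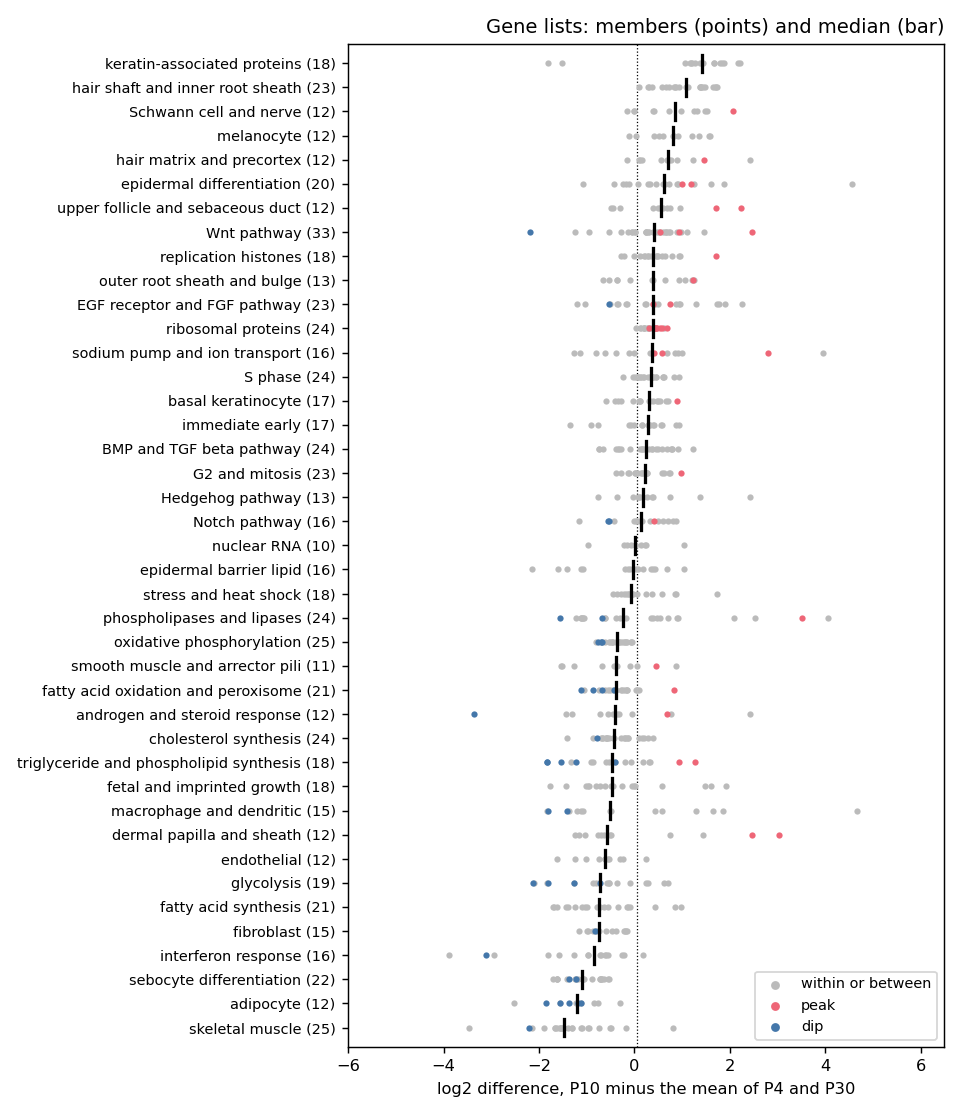
Log2 contrast of P10 against the mean of P4 and P30 (x axis) of every tested member (points) of the gene lists with at least 10 tested members, with the median of each list (bar), the number tested in parentheses, and the median of all genes (dotted line, 0.05). Peaks are red and dips blue, and lists run from keratin-associated proteins at 1.41 to skeletal muscle at -1.47.

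Growth and signalling lists are given beside the shares over all genes tested, 53.8% positive, 2.59% peaks and 1.57% dips. In the S phase list 22 of 24 members were positive with a median of 0.34 (0.19 without P4 libraries 3 and 4 and P30 library 3), and in the G2 and mitosis list 19 of 23 with a median of 0.23 (0.07 without P30 library 3). They held 0 and 1 peaks, the latter being Ccnb2, a mitotic cyclin, at 25.3 to 36.9 CPM against 3.72 to 24.3 CPM. With an unadjusted p under 0.05, 1 and 0 members were higher. The summed share of the S phase list was 0.0839% to 0.131% at P10, 0.089% to 0.123% at P4 and 0.0638% to 0.0754% at P30. For the G2 and mitosis list it was 0.189% to 0.315%, 0.249% to 0.269% and 0.138% to 0.203%. In both lists P10 overlapped P4. Of 33 Wnt pathway genes 25 were positive (median 0.41, and 0.20 without P10 library 2), the receptors Fzd2 and Fzd10 and the feedback inhibitor Notum were peaks, and Sfrp2 was a dip. The summed share of the Wnt list was 0.182% to 0.191% at P10, 0.136% to 0.165% at P4 and 0.115% to 0.169% at P30. P10 overlapped neither other age. Notum was near the limit of detection, at 4.03, 4.51 and 9.58 CPM at P10 and at 0 to 3.77 CPM elsewhere. The receptors Erbb2 and Erbb3 were peaks of the EGF receptor and FGF list, where 15 of 23 members were positive, and Fgfr1 was a dip. The median of that list was 0.39, and 0.24 without P10 library 2 and 0.05 without the 3 libraries with the fewest genes, while its summed share was 0.116% to 0.126% at P10 and 0.0602% to 0.109% elsewhere. Erbb3 was at 132, 88.9 and 150.3 CPM at P4, at 185, 225 and 190.4 CPM at P10, and at 128, 145 and 76.0 CPM at P30. Among 16 Notch genes the ligand Jag2 was a peak, and the transcription factor Rbpj and the glycosyltransferase Lfng were dips, with log2 contrasts of 0.41 ± 0.23, -0.54 ± 0.24 and -0.56 ± 0.28 (SE). Srd5a1, a steroid 5-alpha reductase that makes dihydrotestosterone, was a peak at 29.1 to 31.3 CPM against 14.7 to 25.0 CPM. In its list, androgen and steroid response, only 3 of 12 tested members were positive. The median of that list was -0.40, and -0.07 without the 3 libraries with the fewest genes. Hsd11b1, of the same list, was a dip near the limit of detection, at 1.76, 0.524 and 0.732 CPM at P10. It was at 1.997, 40.6 and 2.55 CPM at P4 and at 2.72, 5.34 and 13.9 CPM at P30. Its log2 contrast was -3.37 ± 1.24 (SE), and between -3.99 and -2.01 with 1 library left out. Neither the Hedgehog nor the BMP and TGF beta list held a peak or dip.

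Markers of further cell types had medians that moved with 1 library. The median was 0.81 for melanocyte markers, 0.21 without P10 library 2, 1.62 without P4 library 4 and 1.82 with limma-voom. For Schwann cell and nerve markers it was 0.85, with 0.10 without P10 library 1 and 1.33 without P4 library 2. Endothelial markers were at -0.62, with -0.40 without P10 library 2 and -0.23 without P4 library 3. Smooth muscle markers were at -0.39, between -0.68 and -0.12 with 1 library left out (P10 library 3 and P4 library 3) and at 0.006 with limma-voom. Dermal papilla markers were at -0.57, with -0.20 without P4 library 2 and 0.26 with limma-voom. Rspo4, a Wnt amplifier of the dermal papilla, was a peak at 9.14, 12.9 and 13.8 CPM at P10 and at 0 to 5.34 CPM elsewhere, as was Smtn, a protein of smooth muscle, at 220.3 to 226 against 141 to 219 CPM. For Smtn the lowest P10 library lay just above the highest P4 library.

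The same range rule was applied to each of the other ages for scale, with each age set against the mean of the other pair. P4 was above all other libraries in 342 genes and below in 555, and P30 in 702 and 286, beside 383 and 232 at P10. These 3 contrasts share libraries, and the difference between the counts was not tested. The numbers of genes called higher and lower were 7 and 1 at P4 and 22 and 2 at P30. Scaling by library totals alone instead of TMM gave 601 peaks and 106 dips at P10 and moved the median contrast of all genes from 0.05 to 0.16.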

How the data were processed

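Laser-captured sebaceous gland basal cells of mouse were sequenced in 9 libraries, made with a stranded pico-input total RNA kit, per the labels' protocols. Each deposited table holds raw counts by gene symbol, which the authors made, per the submitters' processing notes, with Trimmomatic 0.32, STAR and featureCounts 1.5.1 on mm10. No source used here gives the STAR version, how strand was counted or how multi-mapping reads were handled, so overlapping, antisense and paralogous genes are uncertain. Coordinates are from RefSeq GRCm38.p6, where 24407 of 24972 symbols matched.

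Genes with at least 10 counts in 3 or more libraries were fitted with edgeR 4.0.16 (R 4.3.3), TMM factors, the quasi-likelihood test on all 9 libraries without covariates, and Benjamini-Hochberg adjustment over 14806 genes with a threshold of 0.05. The SE is the log2 contrast divided by the square root of F and is approximate. The common dispersion was 0.518. For each gene, P10 was also tested against P4 and against P30, taking the larger p where both had the same sign. Scripts were tested on simulated data. Counting error is small at these depths except for genes of a few CPM, and reads without molecular identifiers are not independent molecules.

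The contrast, the 44 gene lists with 757 genes and the rule for named genes were chosen with earlier results of these data known. Genes named were those called, up to 15 further peaks and 15 further dips by p with a mean of at least 10 CPM, up to 2 of each per list or its members with the smallest p, and Plb1, Lrig1, Krt5, Pparg and Scd1. Some genes that this rule names are not reported here. Others are genes of the lists or were chosen after their values were seen. Alternatives were library totals, RLE size factors, filterByExpr, no filter, DESeq2 1.42.0, limma-voom (limma 3.58.1), the library number as a block, and leaving out libraries.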

Additional observations from a re-analysis of the deposited data

How the results depend on the processing

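With library totals alone there were 601 peaks and 106 dips. With no filter beyond 1 count, 9 genes were called higher and 9 lower in the contrast, and 2 higher in both pairwise tests. DESeq2 called 34 higher and 78 lower in the contrast and 2 higher and 2 lower in both pairwise tests, and 42 of its 112 calls were neither peak nor dip. When P4 libraries 3 and 4 and P30 library 3 (the fewest genes) were left out, so that the lone P4 library is assumed to vary like the others, 0 genes were called higher, the log2 contrast of Elovl6 was 0.59 and that of Krt71 was -0.008. The cause of these differences was not tested, except that fewer libraries or genes entered some fits.

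Leaving out 1 library at a time gave 0 to 2 genes called higher and 0 lower, 0 to 1 higher and 0 lower in both pairwise tests, 487 to 921 peaks and 294 to 527 dips, since fewer values have to be cleared. Peaks numbered 921, 614 and 757 without P10 library 1, 2 or 3 and 594 without P30 library 1. Dips numbered 527 without P10 library 1 and 473 without P4 library 4. The log2 contrast of Krt71 ranged from -0.34 without P10 library 2 to 0.60 without P10 library 1.

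Libraries that share a number across ages had correlations of their deviations between -0.028 and 0.106 in 7 pairs, against -0.239 to 0.185 in 20 pairs with different numbers. So few pairs cannot show whether same-numbered libraries share more than a number. With the library number as a block, 0 genes were called higher, and the adjusted p of Plb1 was 0.244 in edgeR's quasi-likelihood test. Of 2048 log2 contrasts of the 128 named genes under these alternatives, 1990 kept their direction and their side of the threshold, 45 passed it only under the alternative, 10 no longer passed it (all of Plb1) and 3 changed sign (Elovl6 and Krt71). Of 704 medians of the gene lists under these alternatives, 611 moved by less than the spread between P10 libraries and 36 changed sign.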

Other observations

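Genes expressed from only 1 sex differed between libraries of each age, and the labels give no sex. Xist, which is expressed from the inactive X chromosome, was at 1026 CPM in P4 library 4, 970.2 CPM in P10 library 2, and 851 and 884 CPM in P30 libraries 2 and 3. The Y-linked gene Ddx3y was at 64.5 to 114 CPM in P4 libraries 2 and 3, P10 libraries 1 and 3 and P30 library 1. P10 library 3 had 48.0 CPM of Xist beside 64.5 CPM of Ddx3y, and P30 library 3 had 14.8 CPM of Ddx3y beside its Xist, so each age held libraries of both kinds and these 2 held RNA of both.

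Some peaks and dips were neighbours on the chromosome. Next to a gene of the same pattern, counting only tested genes, lay 33 of the 371 peaks and 16 of the 230 dips with coordinates in the annotation. Over all genes tested 2.59% were peaks and 1.57% dips. A match on either side counted, so the share expected without any clustering is higher than these values. An excess of neighbours was not tested. The longest run was Csnk1d, Cd7 and Sectm1b at chr11:120957709-121063585, all 3 of them peaks, though Csnk1d overlaps Slc16a3, a dip. Erbb3 and Rps26, Erbb2 and Pgap3, and Sprr1a and Sprr4 were pairs of peaks, and Hsd11b1 and G0s2, and Gbp7 and Gbp3, were pairs of dips.

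Of all genes tested 4.86% were in at least 1 of the gene lists, as were 8.88% of the peaks (34 of 383) and 14.2% of the dips (33 of 232), and the lists were chosen with earlier results of these data known.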
